A study of Mus musculus with 18 samples.

Results

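The amino acid transporters of early mouse embryos were followed through an Echs1 knockdown and through treatment with crotonate or acetate. They were taken as all gene symbols of the Slc1a, Slc3a, Slc6a, Slc7a, Slc36a, Slc38a and Slc43a series, pseudogenes left out. The rule found 67 of the 55335 entries listed per library. Of these, 63 name a transporter or a transporter subunit, and the other 4 (Slc7a6os, Slc6a19os, Slc36a1os, Slc36a3os) name opposite-strand genes, so counts below are over the 63. Some of the 63 carry other small molecules in place of amino acids, among them Slc6a4 (serotonin), Slc6a8 (creatine), Slc6a6 (taurine) and Slc43a3 (purine nucleobases).

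The series holds 18 poly(A) RNA libraries made by Smart-seq2, each from 5 to 10 pooled embryos. In 1 experiment embryos carrying an siRNA against Echs1 (siEchs1) and embryos carrying a control siRNA (siCon) were collected at 2 stages labelled L2C and E2C, with 3 libraries in each of the 4 groups. In the other, zygotes were given sodium crotonate, sodium acetate or DMSO and collected as early 2-cell embryos, with 2 libraries per group. E2C stands for early 2-cell in the study's design text, and the labels do not spell out L2C. The labels give no strain, no siRNA sequence and no dose. They also do not say whether libraries of a group came from separate matings, so p-values measure only the spread between these libraries.

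Amino acid carriers fall into families by structure and coupling. Slc1 proteins exchange neutral amino acids or take up glutamate and aspartate. Most Slc7 light chains work only when joined to a heavy chain, Slc3a2 or Slc3a1, while the cationic transporters of the same family work alone. Slc6 carriers use sodium and chloride, and in mouse eggs and early embryos Slc6a9 (glycine) and the Slc6a20 carriers (proline and betaine) are known for bringing in organic osmolytes that hold cell volume. Slc36 and Slc38 proteins work at the cell surface or at the lysosome, where Slc38a9 senses arginine for mTORC1. Echs1 is a mitochondrial enoyl-CoA hydratase that acts on crotonyl-CoA, among other substrates.

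The knockdown was visible in the Echs1 transcript. It had 0.89, 4.32 and 4.25 FPKM in the siEchs1 L2C libraries, against 38.6, 39.2 and 24.4 FPKM in the siCon L2C libraries. At E2C it had 0.71, 5.88 and 3.82 FPKM in siEchs1, against 30.5, 27.5 and 32.5 FPKM in siCon, and no library of one group reached the range of the other at either stage. FPKM is the fragment count of a gene scaled to its length and to the mapped fragments of the library. Summed FPKM per library was between 708113 and 1123993, and 12037 to 16703 genes reached 1 FPKM. The mitochondrial genome held 0.831% to 2.27% of the sum in siEchs1 L2C and 7.58% to 11.2% in siCon L2C. At E2C it held 1.69%, 2.82% and 10.3% in siEchs1, against 13.1% to 17.1% in siCon. The siEchs1 E2C library with 10.3% (replicate 3) stood apart from the other two of its group, and acetate replicate 1, with 20.6%, stood apart from acetate replicate 2, with 11.9%. Where leaving out 1 of these libraries changed the call of a result described below, that is stated. Effect sizes without them are not given for every result. Sums over some marker lists of other cells also differed between the siRNA arms. The sum over 9 blood markers was 6.74 to 21.8 FPKM in siEchs1 L2C, against 103.7 to 132.4 FPKM in siCon L2C, and 6.74 to 12.6 FPKM in siEchs1 E2C, against 66.8 to 86.1 FPKM in siCon E2C. The sum over 10 oviduct epithelium markers was 49.9 to 69.7 FPKM in siEchs1 L2C, against 170.9 to 220.5 FPKM in siCon L2C, and the E2C sums overlapped, at 15.96 to 43.4 FPKM in siEchs1 and 28.6 to 35.9 FPKM in siCon. The sum over 17 oocyte and 2-cell markers went the other way at L2C, with 17010 to 20270 FPKM in siEchs1 L2C, against 4718 to 5364 FPKM in siCon L2C. At E2C it was 11180 to 21060 FPKM in siEchs1 and 21290 to 22980 FPKM in siCon. The sum over 14 cumulus and granulosa markers was 40.4 to 51.2 FPKM in siEchs1 L2C and 55.7 to 89.4 FPKM in siCon L2C. At E2C those sums overlapped, and the sums over 12 sperm and testis markers overlapped at both stages. Cdh1, Epcam, Tppp3 and Krt18 of the oviduct list rose from E2C to L2C in siCon by the limma test described below. Of the cumulus and granulosa list 4 genes were tested, and Nr5a2 alone was called between the stages, rising in siCon and in siEchs1. Whether the sums reflect other cells was not tested, nor was the part of these differences in the transporter results. Since FPKM is a share of each library, less RNA per embryo and a smaller share of embryos with the transcript cannot be told apart.

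A limited set of transporters carried nearly all of the signal. Of the 63, 27 reached a mean of 5 FPKM in at least 1 of the 7 groups, 7 had a highest group mean between 1 and 5 FPKM, and 29 reached 1 FPKM in no group. The 29 included Slc38a1, Slc38a2, Slc3a1, Slc36a4 and Slc6a14, and Slc7a10 and Slc7a12 were listed at 0 in every library. Among those between 1 and 5 FPKM, Slc7a8, a light chain for neutral amino acids, averaged 0.133 ± 0.101 FPKM in siEchs1 L2C and 1.48 ± 0.733 FPKM in siCon L2C, and with Slc1a7 and Slc38a4 it did not pass the filter for testing in the siRNA experiment. The summed FPKM of the 63 averaged 549 ± 92.6 in siEchs1 L2C and 633.6 ± 88.8 in siCon L2C (SD, n = 3 each). At E2C the sum averaged 294.3 ± 61.7 in siEchs1 and 189.1 ± 12.1 in siCon. It averaged 262 ± 0.99 in crotonate, 244.3 ± 89.2 in acetate and 290.1 ± 7.14 in DMSO embryos (SD, n = 2 each).

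Slc3a2, the heavy chain shared by the exchangers, was the most abundant transporter transcript in all but 4 libraries. Slc6a9 led in siEchs1 L2C replicate 3, and Slc7a11 led in both DMSO libraries and in acetate replicate 2. Behind Slc3a2 the order changed with stage and siRNA. In siEchs1 L2C it was followed by Slc6a9 at 120.8 ± 17.1 FPKM, Slc38a9 at 33.7 ± 1.64 and Slc43a3 at 29.9 ± 7.33, and the ranges of Slc3a2 and Slc6a9 overlapped there. In siCon L2C it was followed by Slc1a5 at 85.7 ± 21.7 FPKM, Slc1a1 at 57.0 ± 10.3 and Slc6a9 at 51.5 ± 20.8, neighbours whose SDs overlap. In siCon E2C the next were Slc6a15, a carrier of branched-chain amino acids, at 24.1 ± 4.68 FPKM, Slc43a3 at 16.7 ± 4.97 and Slc7a11 at 11.7 ± 0.972.

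**Figure D1:**
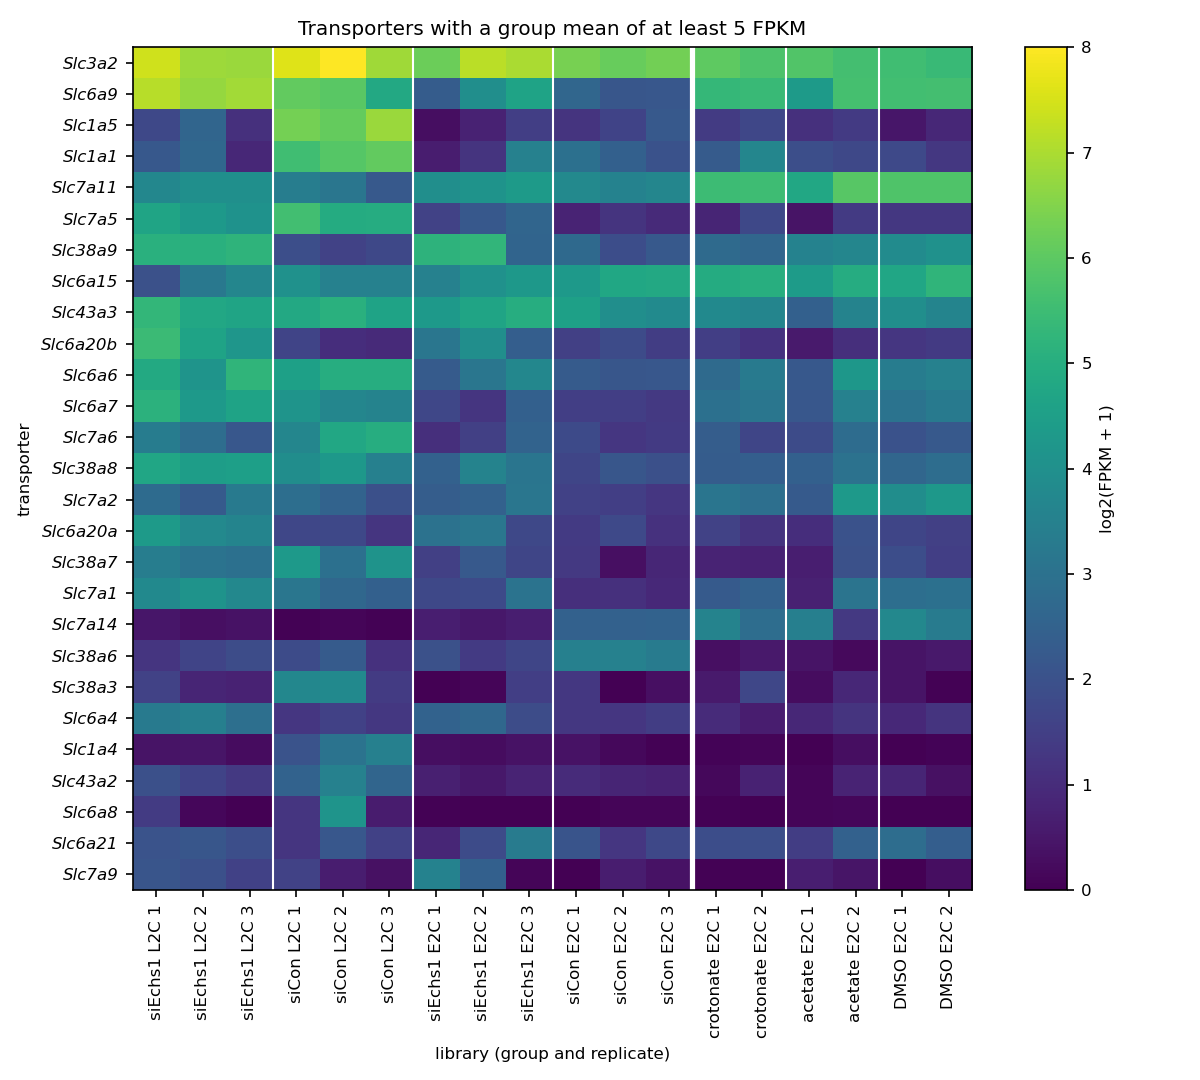
Levels of the 27 transporters with a mean of at least 5 FPKM in at least 1 group, as log2(FPKM + 1), with 1 column per library and white lines between the groups. The rows of Slc1a5, Slc1a1 and Slc1a4 are bright in the 3 siCon L2C libraries and dark in the siEchs1 L2C libraries, and Slc38a9 and Slc6a20b show the opposite.

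The promoters of 6 members are shown: Slc1a1 and Slc1a4, both lower in siEchs1 at L2C, the neighbouring genes Slc6a20b and Slc6a20a and the lysosomal Slc38a9, all higher there, and the cystine carrier Slc7a11 for its copies of the first motif below. No entry was matched for Slc1a5 and Slc7a5. Each is the 250 bases before the RefSeq start on the gene's own strand (GRCm38.p6). Capitals mark 3 motifs searched on both strands: TGATGNAA (the response element of C/EBP-ATF dimers), GGGCGG (the GC box) and CCAAT. A match is a string of letters and not a measured binding site.
Slc1a1 (chr19:28834885-28835134, plus strand): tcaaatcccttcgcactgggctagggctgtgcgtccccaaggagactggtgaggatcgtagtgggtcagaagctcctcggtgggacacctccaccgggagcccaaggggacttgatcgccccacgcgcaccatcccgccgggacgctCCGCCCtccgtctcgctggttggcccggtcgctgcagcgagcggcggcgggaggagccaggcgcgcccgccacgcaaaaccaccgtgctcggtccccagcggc
Slc1a4 (chr11:20332714-20332963, minus strand): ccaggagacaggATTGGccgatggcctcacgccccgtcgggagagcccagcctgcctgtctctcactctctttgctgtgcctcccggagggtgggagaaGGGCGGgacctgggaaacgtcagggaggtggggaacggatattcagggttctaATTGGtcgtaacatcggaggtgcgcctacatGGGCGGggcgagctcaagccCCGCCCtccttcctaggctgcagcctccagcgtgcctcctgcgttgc
Slc6a20b (chr9:123632539-123632788, minus strand): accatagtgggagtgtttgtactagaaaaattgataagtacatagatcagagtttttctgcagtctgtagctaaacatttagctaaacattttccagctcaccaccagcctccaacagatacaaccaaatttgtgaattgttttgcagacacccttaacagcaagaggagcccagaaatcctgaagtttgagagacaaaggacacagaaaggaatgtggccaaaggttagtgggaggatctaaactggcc
Slc6a20a (chr9:123678833-123679082, minus strand): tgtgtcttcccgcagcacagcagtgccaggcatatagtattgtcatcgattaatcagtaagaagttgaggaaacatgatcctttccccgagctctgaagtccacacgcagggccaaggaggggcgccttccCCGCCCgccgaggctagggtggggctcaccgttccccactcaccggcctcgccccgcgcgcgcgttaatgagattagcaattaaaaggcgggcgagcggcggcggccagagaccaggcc
Slc38a9 (chr13:112660516-112660765, plus strand): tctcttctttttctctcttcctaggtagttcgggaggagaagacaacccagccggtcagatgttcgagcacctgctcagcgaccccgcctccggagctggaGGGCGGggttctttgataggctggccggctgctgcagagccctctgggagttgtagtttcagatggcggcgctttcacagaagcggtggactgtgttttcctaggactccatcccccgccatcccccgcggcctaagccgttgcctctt
Slc7a11 (chr3:50443614-50443863, minus strand): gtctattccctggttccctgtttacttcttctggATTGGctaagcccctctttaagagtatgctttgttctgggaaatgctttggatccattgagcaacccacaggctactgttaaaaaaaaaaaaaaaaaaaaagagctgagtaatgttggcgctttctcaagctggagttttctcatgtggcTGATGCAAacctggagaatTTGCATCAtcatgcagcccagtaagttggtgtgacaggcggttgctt

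RefSeq promoter entries were matched for 45 of the 63 transporters. TGATGNAA occurred 2 times in the Slc7a11 window, 1 copy on each strand, and in none of the other 5. It was present in 3.45% of all 32851 windows of that length and in 6.06% of the 66 transporter windows, those of Slc6a21, Slc7a11 and Slc7a7. GGGCGG was found in 32.7% of all windows and in 47% of the transporter windows. It stood 3 times in Slc1a4, 1 time each in Slc1a1, Slc6a20a and Slc38a9, and not in Slc6a20b or Slc7a11. CCAAT, found in 33.8% of all windows and 24.2% of the transporter windows, stood 2 times in Slc1a4 and 1 time in Slc7a11. The neighbours Slc6a20b and Slc6a20a differed in composition: the Slc6a20b window had 0 CpG and 41.6% GC, and the Slc6a20a window 21 CpG and 61.2% GC, beside medians of 6 CpG and 52.4% GC over all windows. Aligned end to end, these 2 windows matched at 47.6% of positions, within the 44.8% to 54.4% of the 15 pairs that the 6 windows form.

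Tests were run with limma on log2(FPKM + 1), two-sided, over all genes with at least 1 FPKM in enough libraries, and genes with an adjusted p (Benjamini-Hochberg) below 0.05 were taken as called. In the siRNA experiment 31 transporters passed this filter, among 17652 genes. Slc1a4 and Slc7a4 passed it only through the siCon L2C libraries, and Slc7a14 only through those of siCon E2C. Slc36a1 (4.55 and 4.72 FPKM in siCon L2C, 2.4 in siEchs1 E2C replicate 3) would not have passed without siCon L2C. Nor would Slc6a8 (1.33 and 16.8 FPKM in siCon L2C, 1.64 in siEchs1 L2C replicate 1). These genes were tested only because the siCon group named for each was high, so their calls involving it are a description. Fold changes below are log2 differences of FPKM + 1 with their standard error, which understates changes of genes at low values. Where siEchs1 is set against siCon, rose and fell mean higher and lower than siCon at the same stage. Slc43a3, Slc6a15, Slc6a21 and Slc7a9 were called in none of the siRNA and stage comparisons.

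In control embryos most transporters measured were higher at the later stage. Between L2C and E2C in siCon, 22 of the 31 were called, 20 higher and 2 lower, where 50.2% of all genes were called (35.8% higher, 14.4% lower). The median change was 1.71 for the transporters and 0.51 for all genes, and 22 of the 31 lay above the median of all genes. Quantile normalization brought the median of all genes to 0.01 and the called transporters to 16 higher and 4 lower. Over all 17652 genes it gave 4240 called higher and 4141 lower, beside 6326 and 2544 in the main fit.

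The large neutral amino acid exchanger and its partner rose together with the stage. Slc7a5, the light chain that carries leucine and other large neutral amino acids, had 47.2, 29.4 and 30.1 FPKM in siCon L2C, against 0.74, 1.28 and 0.93 FPKM in siCon E2C. The groups were far apart, with a log2 change of 4.18 ± 0.35 (limma adjusted p = 5.11e-06). Slc3a2 had 195.2, 255.5 and 114.7 FPKM in siCon L2C, against 81.0, 69.9 and 78.4 FPKM in siCon E2C. All 3 later libraries were above the earlier ones, and the change was 1.22 ± 0.37 (limma adjusted p = 0.0151, and 0.00542 to 0.0706 over the alternatives; it was 0.0559 after quantile normalization, 0.0511 without siCon E2C replicate 2 and 0.0706 without siCon L2C replicate 2). The 2 light chains that exchange cationic for neutral amino acids rose too, Slc7a6 by 3.02 ± 0.48 and Slc7a7 by 1.90 ± 0.35. Slc7a11 went against them in value, at 9.54, 7.82 and 3.71 FPKM in siCon L2C and 12.6, 10.7 and 11.7 FPKM in siCon E2C, a change of -0.73 that passed the test only after quantile normalization (limma adjusted p = 0.00202) or without siCon L2C replicate 1 (0.0439), with 0.382 as the highest of the alternatives.

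All 3 Slc1 carriers tested were higher at L2C in siCon, Slc1a4 having passed the filter only through that group. Slc1a5, the main glutamine and neutral amino acid exchanger of growing cells, had 79.8, 67.6 and 109.8 FPKM in siCon L2C, against 1.30, 2.04 and 3.66 FPKM in siCon E2C. Slc1a1, a glutamate, aspartate and cysteine carrier, had 45.9, 58.9 and 66.3 FPKM in siCon L2C, against 6.78, 4.48 and 3.04 FPKM in siCon E2C. Slc1a4, a carrier of serine, alanine and other small neutral amino acids, had 3.09, 7.25 and 10.3 FPKM in siCon L2C, against 0.30, 0.12 and 0.04 FPKM in siCon E2C. The groups did not overlap for any of the 3, and the log2 changes were 4.73 ± 0.46, 3.37 ± 0.66 and 2.66 ± 0.33 in that order.

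Among the osmolyte carriers, Slc6a9 had 66.2, 60.5 and 27.7 FPKM in siCon L2C, against 5.19, 3.44 and 3.49 FPKM in siCon E2C (3.30 ± 0.52, limma adjusted p = 0.000241). The taurine carrier Slc6a6 had 22.2, 30.7 and 31.0 FPKM in siCon L2C, against 3.88, 3.38 and 3.46 FPKM in siCon E2C (2.65 ± 0.39, limma adjusted p = 0.000167). The proline carrier Slc6a7 rose by 2.37 ± 0.37. For each of these the lowest later library was well above the highest earlier one. Slc6a20a and Slc6a20b stayed between 0.93 and 2.54 FPKM in all 6 siCon libraries. The exons of Slc6a9 share 1986 of 5141 bases with opposite-strand genes, chiefly Ccdc24 and B4galt2, and B4galt2 rose over the same stages (2.32, limma adjusted p = 0.000272). The counting is not stated to use strand, so the reads of these genes cannot be told apart.

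Only 2 transporters were called lower at L2C in siCon. Slc7a14, a lysosomal relative of the cationic transporters, had 0.04, 0.09 and 0.04 FPKM in siCon L2C, against 4.58, 4.66 and 4.67 FPKM in siCon E2C (-2.42 ± 0.22, limma adjusted p = 7.85e-06). Slc38a6 had 2.55, 3.95 and 1.22 FPKM in siCon L2C, against 10.3, 10.3 and 8.97 FPKM in siCon E2C (-1.68 ± 0.35, limma adjusted p = 0.00178). The E2C libraries were tightly grouped for both genes and lay above every L2C library. Of the rest, the glutamine carriers Slc38a7 (2.96 ± 0.41), Slc38a3 (2.43 ± 0.63) and Slc38a8 (1.97 ± 0.35), Slc38a10 (1.62 ± 0.40), the lysosomal proton-coupled carrier Slc36a1 (1.38 ± 0.42), the large neutral amino acid carrier Slc43a2 (2.03 ± 0.33), the arginine carriers Slc7a1 (1.71 ± 0.38) and Slc7a2 (1.04 ± 0.37) and the creatine carrier Slc6a8 (1.92 ± 0.69) rose. The mean of Slc6a8 rests on siCon L2C replicate 2, with 16.8 FPKM beside 1.33 and 0.54 FPKM in the other two, and its call was lost under 8 of 19 alternatives (limma adjusted p 0.00953 to 0.103), 0.0875 without that library and 0.0548 without siEchs1 E2C replicate 3. Slc7a4, a further relative of the cationic transporters, had 2.14, 2.93 and 3.29 FPKM in siCon L2C and was listed at 0 in all 3 siCon E2C libraries. Under all alternatives tried, 18 of the 22 calls were kept, and the exceptions were Slc36a1, Slc3a2, Slc6a8 and Slc7a2. Of the exceptions, Slc36a1 and Slc6a8 would not have been tested without siCon L2C. Of those kept, Slc1a4, Slc7a4 and Slc7a14 were each tested only through a single siCon group. Slc7a7 shares exon bases with Oxa1l, an opposite-strand gene that rose too (3.11, limma adjusted p = 4.48e-05). Slc43a2 shares exon bases with Gm45606, which averaged 1.29 FPKM in siCon L2C and 0.08 FPKM in siCon E2C. Slc7a4 shares them with P2rx6, which averaged 0.207 FPKM in siCon L2C and 0 FPKM in siCon E2C.

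In siEchs1 embryos at L2C the transporters split. Of the 31, 14 were called, 6 higher and 8 lower than in siCon L2C, against 48.8% of all genes (21.9% higher, 26.9% lower), so the called share was close to that of all genes. The median change was -0.10 for the transporters and -0.08 for all genes. By family, 3 of 3 Slc1 carriers tested were called lower and 3 of 9 Slc6 carriers higher. Of the 3 Slc1 carriers, Slc1a4 passed the filter only through the siCon L2C libraries. The 7 Slc36 and Slc38 carriers had 1 higher and 2 lower, the 4 cationic transporters and relatives 1 of each, the 6 exchanger chains 1 of each, and of the 2 Slc43 carriers 1 was lower.

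Slc1a5 had 2.30, 5.15 and 1.14 FPKM in siEchs1 L2C, against 79.8, 67.6 and 109.8 FPKM in siCon L2C. The log2 change of -4.60 ± 0.46 (limma adjusted p = 5.18e-05) was the most negative of the 31. Slc1a1 had 3.65, 5.33 and 0.87 FPKM in siEchs1 L2C, against 45.9, 58.9 and 66.3 FPKM in siCon L2C (-3.92 ± 0.66, limma adjusted p = 0.00051). Slc1a4 had 0.34, 0.38 and 0.21 FPKM in siEchs1 L2C, against 3.09, 7.25 and 10.3 FPKM in siCon L2C (-2.47 ± 0.33, limma adjusted p = 0.000155). For all 3 the siEchs1 L2C libraries lay below every siCon L2C library. The exons of Slc1a1 share 2631 of 8257 bases with the opposite-strand gene 4430402I18Rik, which averaged 2.15 FPKM in siEchs1 L2C and 1.03 FPKM in siCon L2C.

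The exchanger light chains did not move as a block. Slc7a6 had 9.24, 6.25 and 3.47 FPKM in siEchs1 L2C, against 11.8, 26.97 and 31.0 FPKM in siCon L2C (-1.70 ± 0.48, limma adjusted p = 0.0109, with 0.00247 to 0.0535 over the alternatives, the highest without siEchs1 L2C replicate 3). Slc7a5 had 24.3, 19.3 and 15.9 FPKM in siEchs1 L2C, against 47.2, 29.4 and 30.1 FPKM in siCon L2C, groups that did not overlap but a difference that missed the threshold (-0.80 ± 0.35, limma adjusted p = 0.0752, with 0.036 to 0.241 over the alternatives, the lowest without siEchs1 E2C replicate 3). Slc7a11, which brings in cystine for glutathione synthesis, had 12.2, 14.7 and 14.7 FPKM in siEchs1 L2C, against 9.54, 7.82 and 3.71 FPKM in siCon L2C. It was above siCon in every library, by 0.96 ± 0.33 (limma adjusted p = 0.0292, with 0.0152 to 0.106 over the alternatives). The call was lost without siCon L2C replicate 3 (0.106), siEchs1 L2C replicates 2 (0.0816) or 3 (0.0824), and without the filter (0.0512). Slc3a2 had 170.8, 113.0 and 109.9 FPKM in siEchs1 L2C, against 195.2, 255.5 and 114.7 FPKM in siCon L2C, groups that overlap and did not pass the test (adjusted p = 0.303). Of the cationic transporters, Slc7a1 had 12.8, 16.2 and 12.3 FPKM in siEchs1 L2C, against 7.74, 5.37 and 4.49 FPKM in siCon L2C. The groups were apart (1.12 ± 0.38, limma adjusted p = 0.0268), but the call was lost without any 1 of the siEchs1 L2C libraries (0.0506 to 0.0887) or without siCon L2C replicate 2 (0.0685) or 3 (0.0835). Slc7a4 was lower, at 0.58, 0.11 and 0.10 FPKM in siEchs1 L2C, against 2.14, 2.93 and 3.29 FPKM in siCon L2C. Its exons share 554 of 4153 bases with the opposite-strand gene P2rx6, which averaged 0.02 FPKM in siEchs1 L2C and 0.207 FPKM in siCon L2C.

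The neighbouring genes Slc6a20b and Slc6a20a, which stayed low in siCon at both stages, were high in siEchs1 L2C. Slc6a20b had 43.1, 23.9 and 17.6 FPKM in siEchs1 L2C, against 2.15, 1.08 and 0.93 FPKM in siCon L2C (3.55 ± 0.44, limma adjusted p = 0.000106). Slc6a20a had 19.6, 12.7 and 11.2 FPKM in siEchs1 L2C, against 2.28, 2.34 and 1.35 FPKM in siCon L2C (2.35 ± 0.41, limma adjusted p = 0.000662). The groups were apart by several-fold for both. They are paralogs of similar sequence whose reads may be shared, so the split between them is uncertain. Exons of Slc6a20b also share 1800 of 8538 bases with Sacm1l, which averaged 6.90 FPKM in siEchs1 L2C and 5.93 FPKM in siCon L2C. Those of Slc6a20a share 607 of 4084 bases with 3 opposite-strand genes, of which Gm17120 rose as well (3.04, limma adjusted p = 0.000333).

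Slc6a9 had 139.1, 105.3 and 118.1 FPKM in siEchs1 L2C, against 66.2, 60.5 and 27.7 FPKM in siCon L2C. Every siEchs1 library was above every siCon library, but the change of 1.30 ± 0.52 did not pass the test in the fit over all 12 libraries (limma adjusted p = 0.0536). It passed in a fit of the compared libraries alone (0.0102), without siEchs1 E2C replicate 1 (0.0115) and without siEchs1 E2C replicate 3 (0.0151), and reached 0.2 under another alternative. Its overlapping neighbour B4galt2 averaged 56.4 FPKM in siEchs1 L2C and 24.5 FPKM in siCon L2C. Slc6a7 had 34.5, 18.8 and 24.2 FPKM in siEchs1 L2C, against 16.5, 11.9 and 11.02 FPKM in siCon L2C, also with no overlap (0.90 ± 0.37, limma adjusted p = 0.0587; 0.0192 without siEchs1 E2C replicate 3, with 0.0192 to 0.197 over the alternatives). The taurine carrier Slc6a6 averaged 27.1 ± 10.2 FPKM in siEchs1 L2C and 28.0 ± 4.98 FPKM in siCon L2C, well within the spread. The serotonin carrier Slc6a4 averaged 8.42 ± 1.72 FPKM in siEchs1 L2C and 1.60 ± 0.272 FPKM in siCon L2C (1.85 ± 0.31, limma adjusted p = 0.000548).

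At the lysosome the named carriers went different ways. Slc38a9 had 32.8, 32.7 and 35.6 FPKM in siEchs1 L2C, against 2.76, 2.00 and 2.35 FPKM in siCon L2C. The siEchs1 libraries were closely grouped and far above siCon (3.37 ± 0.58, limma adjusted p = 0.000574). Slc36a1 fell by 1.17 on the log2 scale (limma adjusted p = 0.0369; lost under 8 of 19 alternatives, among them each siEchs1 L2C library left out and siCon L2C replicates 2, 0.131, and 3, 0.132), and the lysosomal glutamine carrier Slc38a7 averaged 7.85 ± 1.49 FPKM in siEchs1 L2C and 14.0 ± 6.40 FPKM in siCon L2C, with overlapping libraries and an adjusted p of 0.2. Slc43a2 was lower, at 2.87, 2.04 and 1.52 FPKM in siEchs1 L2C, against 4.77, 10.5 and 5.05 FPKM in siCon L2C (-1.25 ± 0.33, limma adjusted p = 0.00738). Its exons share 922 of 10042 bases with the opposite-strand gene Gm45606, which averaged 0.133 FPKM in siEchs1 L2C and 1.29 FPKM in siCon L2C. Slc38a3 had 2.01, 0.79 and 0.69 FPKM in siEchs1 L2C, against 12.1, 13.0 and 1.64 FPKM in siCon L2C. The libraries overlap, and the call (limma adjusted p = 0.024) was lost under 6 of 19 alternatives, among them siCon L2C replicates 1 (0.0915) and 2 (0.0974) and siEchs1 L2C replicates 2 (0.0692) and 3 (0.0757) left out. Of the 14 calls, 9 were kept under every alternative, namely the 3 Slc1 carriers, Slc38a9, Slc43a2, Slc6a20a, Slc6a20b, Slc6a4 and Slc7a4. Among them, Slc1a4 and Slc7a4 were tested only through siCon L2C. Slc36a1, whose call was not kept, would not have been tested without siCon L2C.

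**Figure D2:**
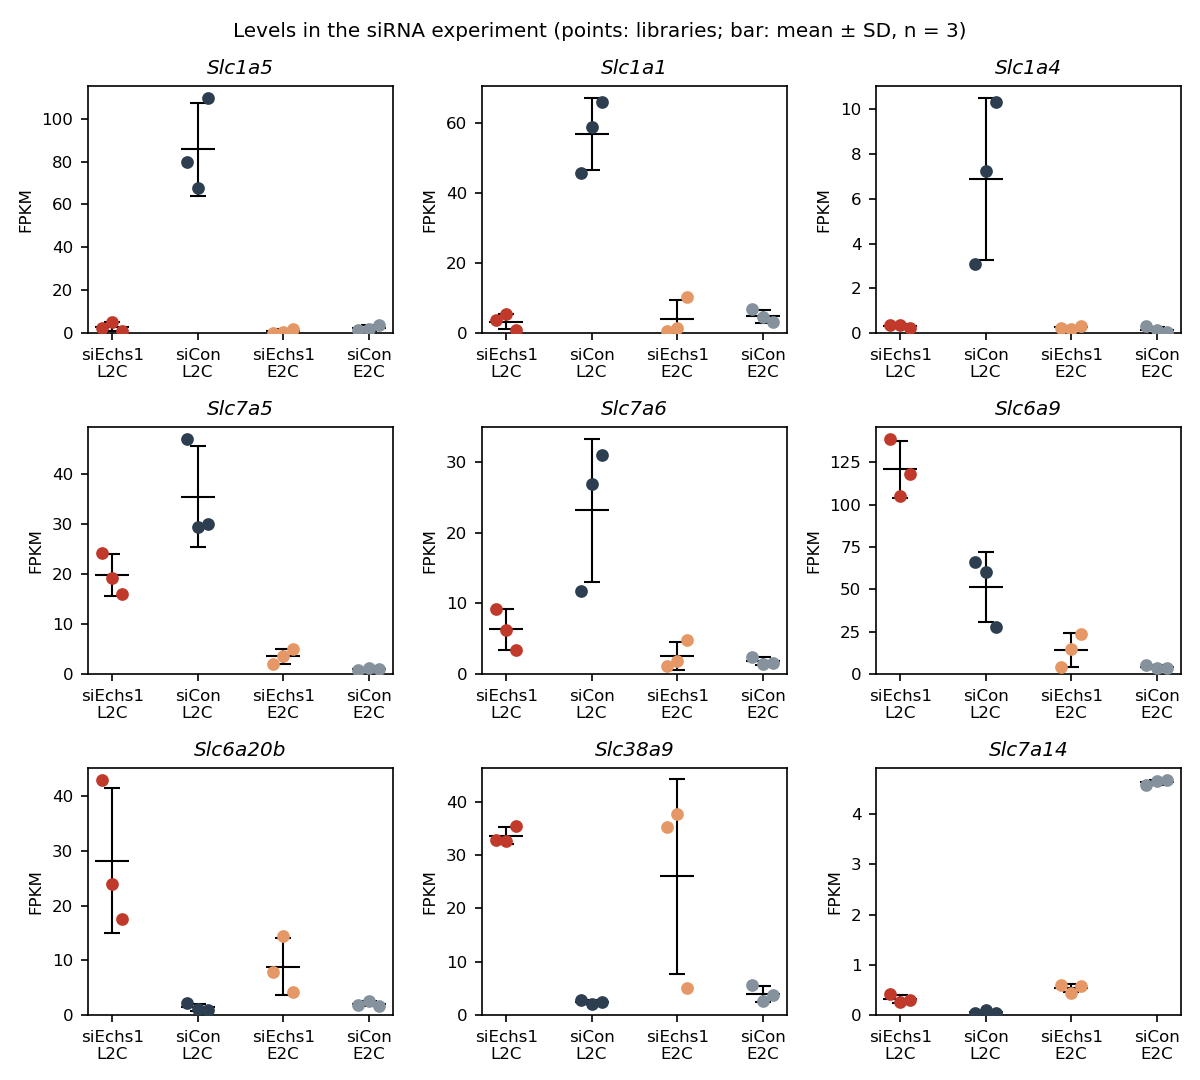
FPKM of 9 transporters in each library of the siRNA experiment, with the group mean and SD (n = 3). Slc1a5, Slc1a1 and Slc1a4 are high in siCon L2C alone, Slc6a20b and Slc38a9 are high in siEchs1 L2C, and Slc7a14 is high in siCon E2C alone.

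At E2C fewer transporters differed between the siRNA arms, and most of those were higher in siEchs1. Of the 31, 10 were called, 8 higher and 2 lower, against 20.3% of all genes (11% higher, 9.31% lower). The median change was 0.50 for the transporters and 0.15 for all genes. Slc7a14 had 0.59, 0.44 and 0.58 FPKM in siEchs1 E2C, against 4.58, 4.66 and 4.67 FPKM in siCon E2C (-1.88 ± 0.22, limma adjusted p = 0.00023). Slc38a6 had 2.94, 1.58 and 2.18 FPKM in siEchs1 E2C, against 10.3, 10.3 and 8.97 FPKM in siCon E2C (-1.77 ± 0.35, limma adjusted p = 0.00509). Both were thus already low in siEchs1 at E2C, as they were in siCon at L2C. Slc7a7, the exchanger that exports arginine and lysine, had 5.48, 4.24 and 2.27 FPKM in siEchs1 E2C, against 0.56, 0.39 and 0.47 FPKM in siCon E2C (1.71 ± 0.35, limma adjusted p = 0.00592). These 3 genes, with no overlap between groups, are the calls that held under every alternative at this stage. Of them, Slc7a14 was tested only through siCon E2C. Exons of Slc7a7 share 232 of 3315 bases with Oxa1l, an opposite-strand gene that also rose (2.40, limma adjusted p = 0.00156).

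The other 7 calls at E2C were lost under at least 6 alternatives each. Slc38a9 had 35.3, 37.8 and 5.01 FPKM in siEchs1 E2C, against 5.65, 2.67 and 3.73 FPKM in siCon E2C. The low library, replicate 3, lies inside the siCon range; the change was 2.06 ± 0.58 with it (limma adjusted p = 0.0251) and 2.95 without it (1.42e-05). Slc6a20b had 7.81, 14.5 and 4.29 FPKM in siEchs1 E2C, against 1.87, 2.54 and 1.72 FPKM in siCon E2C (1.57 ± 0.44, limma adjusted p = 0.0252 with replicate 3 and 0.00237 without it). Slc6a20a, at 7.09, 8.02 and 2.31 FPKM in siEchs1 E2C and 1.56, 2.39 and 1.19 FPKM in siCon E2C, was not called with replicate 3 (limma adjusted p = 0.0537) and was called without it (0.00206). Slc38a8 had 4.66, 10.9 and 7.66 FPKM in siEchs1 E2C, against 2.20, 3.39 and 2.90 FPKM in siCon E2C, with no overlap. With it, Slc7a5, Slc7a1, Slc7a2 and Slc6a4 were called higher, by 1.01 to 1.23, with adjusted p from 0.0355 to 0.0491. Of these, Slc7a5, Slc7a1 and Slc7a2 were no longer called without replicate 3 (0.0511, 0.0861 and 0.0525).

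Without siEchs1 E2C replicate 3 the count was again 10, but not the same genes. Over all 17652 genes, the called count went from 3578 to 6496. Slc1a1 (-1.56, adjusted p = 0.0197) and the cystine and cationic amino acid exchanger Slc7a9 (2.65, adjusted p = 0.000377) joined Slc6a20a. Slc7a9 had 10.6, 4.52 and 0.08 FPKM in siEchs1 E2C, against 0.00, 0.57 and 0.31 FPKM in siCon E2C, and its usual heavy chain Slc3a1 reached a mean of 0.59 FPKM at most in any group. The 3 libraries of siEchs1 E2C differed most for these genes, replicate 3 lying with siCon for Slc38a9 and Slc7a9 and above the other two for Slc1a1 (0.55, 1.31 and 10.3 FPKM). Leaving out any siCon E2C library, or siEchs1 E2C replicate 2, left 3 or 4 calls, and leaving out siEchs1 L2C replicate 2 left 6. Over all genes, the same fits left 1889 to 2295 calls and 3007. Slc6a9 had 4.04, 14.6 and 23.9 FPKM in siEchs1 E2C, against 5.19, 3.44 and 3.49 FPKM in siCon E2C, with overlap (1.33 ± 0.52, limma adjusted p = 0.0876, and 0.00806 without siEchs1 E2C replicate 1). Its opposite-strand neighbours Ccdc24 (1.84, limma adjusted p = 0.0112) and B4galt2 (1.67, 0.00874), which share its exon bases, were called higher in siEchs1 E2C. Slc7a6os, the opposite-strand gene next to Slc7a6, rose by 1.28 ± 0.37 (limma adjusted p = 0.0295), a call lost under 8 of 19 alternatives (0.000297 to 0.13), among them siCon E2C replicates 1 (0.0932), 2 (0.0679) and 3 (0.0843) and siEchs1 E2C replicates 1 (0.0637) and 2 (0.122) left out. Its exons do not overlap those of Slc7a6.

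**Figure D3:**
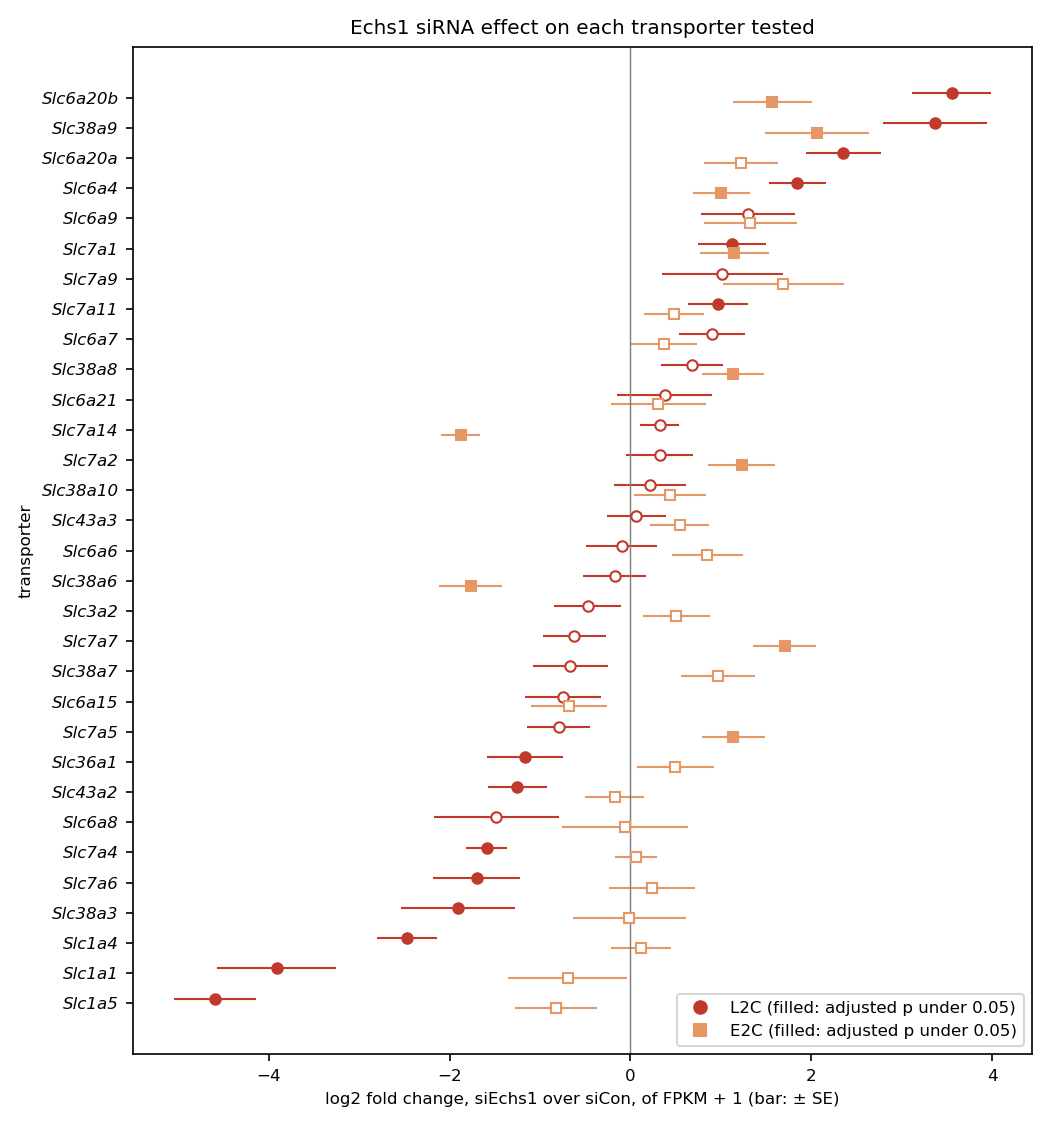
Log2 fold change of siEchs1 over siCon with its standard error for the 31 transporters tested, at L2C (circles) and at E2C (squares), with open symbols where the adjusted p was 0.05 or more. The Slc1 carriers lie lowest at L2C, and Slc7a14 and Slc38a6 are the 2 filled squares below 0 at E2C.

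Whether the siRNA effect differed between the stages was tested as an interaction. Of the 31, 9 were called, 3 with a higher effect at L2C and 6 with a lower one, against 17.2% of all genes (5.65% higher, 11.6% lower). The median difference was -0.67 for the transporters and -0.21 for all genes. The effect on Slc1a5 was -4.60 at L2C and -0.82 at E2C, a difference of -3.77 ± 0.64 (limma adjusted p = 0.00516). Slc1a4 differed by -2.59 ± 0.47 and Slc1a1 by -3.22 ± 0.93. The exchanger light chains Slc7a5 (-0.80 at L2C, 1.14 at E2C, difference -1.93 ± 0.49, adjusted p = 0.0206) and Slc7a7 (-0.62 at L2C, 1.71 at E2C, difference -2.33 ± 0.49, adjusted p = 0.0109) were above siCon at E2C and below it in value at L2C. Slc7a14 differed the other way (2.20 ± 0.31, adjusted p = 0.0021), since it was near 0 in both arms at L2C. For Slc38a9 (difference 1.30 ± 0.82, adjusted p = 0.283) and Slc6a9 (-0.03 ± 0.73, adjusted p = 0.982) no stage difference was called, with 95% intervals of -0.46 to 3.07 and -1.61 to 1.56. The E2C effect on Slc38a9 was 2.06 in the main fit and 2.95 without siEchs1 E2C replicate 3, beside 3.37 at L2C. Slc6a20b differed by 1.98 ± 0.62 (limma adjusted p = 0.0446), and by 1.60 without siEchs1 E2C replicate 3 (0.0503; 0.025 to 0.0979 over the alternatives). The calls kept under every alternative were 5, those of Slc1a4, Slc1a5, Slc7a14, Slc7a4 and Slc7a7. Of these, Slc1a4, Slc7a14 and Slc7a4 were each tested only through a single siCon group. Oxa1l, the opposite-strand gene that shares exon bases with Slc7a7, differed between the stages as well (-2.34, limma adjusted p = 0.015).

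Between L2C and E2C in siEchs1, fewer transporters were called than in siCon, as was so for all genes. Of the 31, 9 were called, all higher, against 14.6% of all genes (11.8% higher, 2.73% lower). The median change was 0.53 for the transporters and 0.23 for all genes, beside 1.71 and 0.51 in siCon. The 2 stage comparisons share no library, and the difference between them is the interaction given above. Slc6a9 had 139.1, 105.3 and 118.1 FPKM in siEchs1 L2C, against 4.04, 14.6 and 23.9 FPKM in siEchs1 E2C (3.28 ± 0.52, limma adjusted p = 0.00177). Slc6a7 (2.91 ± 0.37) and Slc7a5 (2.24 ± 0.35) rose as well, and these 3 kept their calls under every alternative. Of the opposite-strand genes sharing exon bases with Slc6a9, B4galt2 rose (1.81, limma adjusted p = 0.0069) and Ccdc24 fell (-2.68, 0.00188). The remaining 6 were Slc7a1, Slc38a8, Slc6a6, Slc6a20b, Slc38a10 and Slc38a7. Without siEchs1 E2C replicate 3 the last 3 were not called (limma adjusted p = 0.0506, 0.0649 and 0.0623). None of the 3 Slc1 carriers was called: Slc1a5, with 2.30, 5.15 and 1.14 FPKM in siEchs1 L2C and 0.24, 0.70 and 1.80 FPKM in siEchs1 E2C, changed by 0.96 ± 0.46 (adjusted p = 0.192), with overlapping libraries. Without siEchs1 L2C replicate 1 the count was 4, and that of all genes was 1174, beside 2572 in the main fit.

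**Figure D4:**
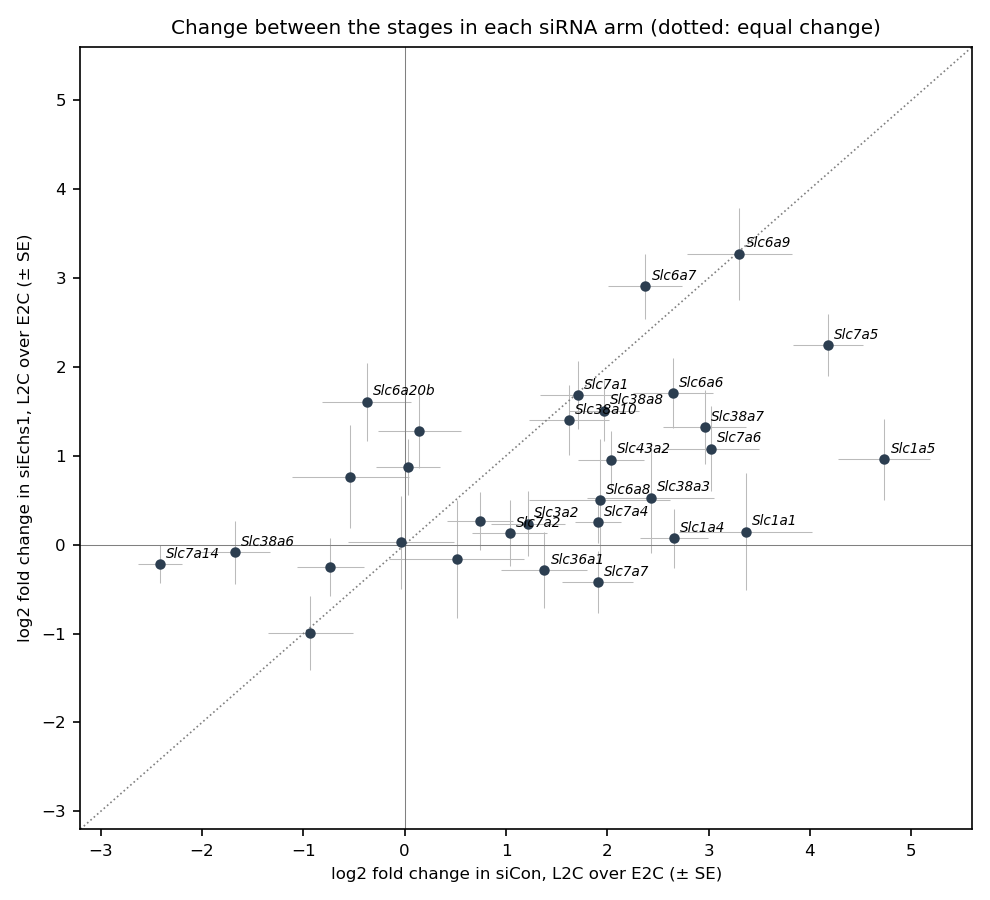
Log2 fold change between L2C and E2C in siCon (horizontal) and in siEchs1 (vertical) for the 31 transporters tested, with standard errors, and names where either change was called. Slc6a9 lies on the line of equal change, while Slc1a5, Slc1a1 and Slc1a4 lie far below it, at 0.96, 0.15 and 0.07 in siEchs1.

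In the treatment experiment no transporter was called. Sodium crotonate and sodium acetate are salts of short-chain carboxylic acids, crotonate being the longer and unsaturated one, and the labels give no dose for either, so their values are set side by side without a claim of matched exposure. Of 24 transporters tested, 0 were called in crotonate against DMSO, where 0.529% of 13789 genes were called (0.21% higher, 0.319% lower). At an unadjusted p under 0.05 there were 3. In acetate against DMSO 0 were called (0.0653% of all genes, 0.00725% higher and 0.058% lower; 0 at an unadjusted p under 0.05), and in crotonate against acetate 0 (1.86% of all genes, 1.02% higher and 0.841% lower; 2 at an unadjusted p under 0.05). With 2 libraries per group the intervals are wide.

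Slc38a9 had 5.82 and 5.23 FPKM in crotonate, 10.7 and 11.6 in acetate, and 13.7 and 15.6 in DMSO embryos. The 3 groups did not overlap, as was also so for Slc1a5 and Slc36a1. All crotonate libraries were above those of DMSO for 4 of the 24 transporters and below them for 9. The share over all genes was not counted. For Slc38a9 crotonate differed from DMSO by -1.26 (95% interval -1.99 to -0.53, limma adjusted p = 0.111) and from acetate by -0.90 (-1.63 to -0.17, adjusted p = 0.172). The first passed the threshold when the acetate libraries were left out of the fit (0.0344), or either of them (0.0331 and 0.0346), and reached 0.621 under another alternative. Slc1a1 had 3.97 and 11.8 FPKM in crotonate, 2.82 and 2.30 in acetate, and 2.39 and 1.45 in DMSO embryos. Both crotonate libraries were the highest, but they were far apart from each other (1.47 over DMSO, 95% interval 0.32 to 2.61, adjusted p = 0.198; 1.17 over acetate, 0.02 to 2.31, adjusted p = 0.248). Slc1a5 had 1.61 and 2.28 FPKM in crotonate, 1.18 and 1.54 in acetate, and 0.40 and 0.85 in DMSO embryos (0.86 over DMSO, 95% interval 0.06 to 1.66, adjusted p = 0.271).

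For 8 of the 24 transporters acetate replicate 1 was below, and acetate replicate 2 above, all crotonate and DMSO libraries. They were Slc38a7, Slc6a20a, Slc6a6, Slc6a7, Slc6a9, Slc7a1, Slc7a11 and Slc7a2. The same count was not made over all genes, so it cannot be told apart from a general difference between the 2 acetate libraries. Summed FPKM was 992596 in acetate replicate 1 and 775599 in acetate replicate 2. Slc7a2 had 7.59 and 6.61 FPKM in crotonate, 3.78 and 18.7 in acetate, and 14.2 and 18.1 in DMSO embryos. Slc6a9 had 39.3 and 41.5 FPKM in crotonate, 19.5 and 49.5 in acetate, and 47.3 and 47.5 in DMSO embryos. Slc7a11 had 43.9 and 44.6 FPKM in crotonate, 26.9 and 59.3 in acetate, and 55.0 and 54.2 in DMSO embryos. The spread between the 2 acetate libraries was wider than the distance between crotonate and DMSO embryos for each of these 3. Without acetate replicate 1 no transporter was called in acetate against DMSO, and Slc38a9 and Slc7a2 (adjusted p = 0.0476) were called lower in crotonate against DMSO. Without acetate replicate 2, leaving 1 acetate library whose spread is assumed to be that of the other groups, Slc6a9, Slc7a1 and Slc7a2 were called lower in acetate against DMSO.

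**Figure D5:**
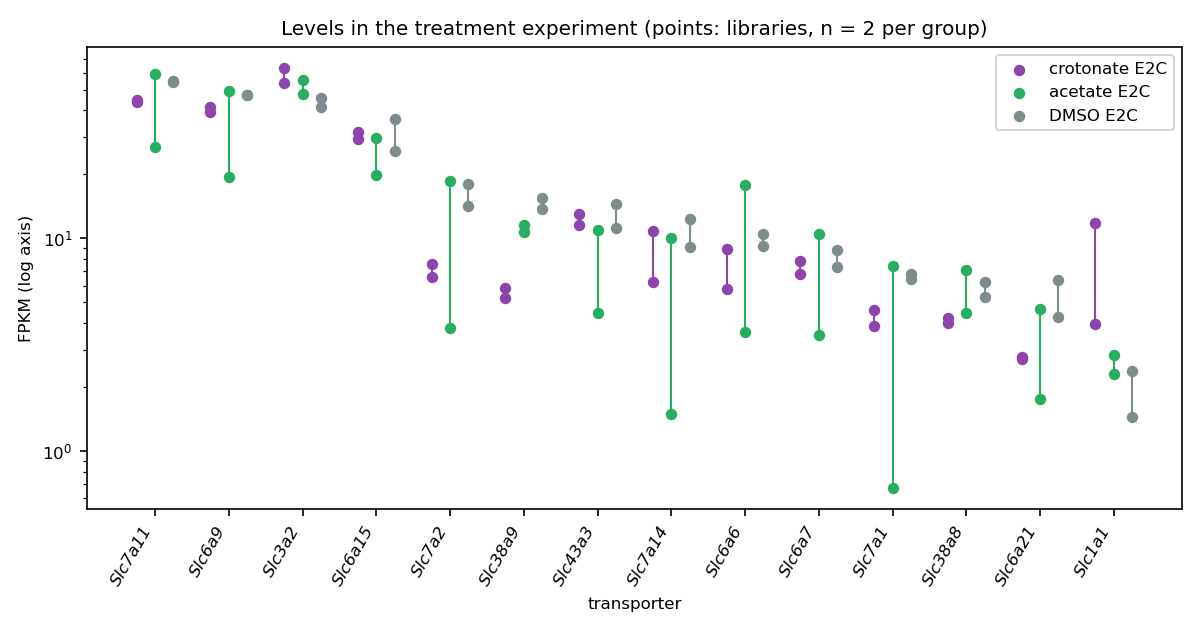
FPKM on a log axis of the 14 transporters with a group mean of at least 5 FPKM in the treatment experiment, with 1 point per library (n = 2 per group). Slc38a9 separates the 3 groups without overlap, and the long green lines show how far the 2 acetate libraries lie apart.

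Genes that work with the transporters were followed in 6 lists. They were made with earlier results of these data known, so their counts are a description. In the mTORC1 and amino acid sensing list, 38 genes were tested. In siEchs1 against siCon at L2C 8 rose and 11 fell (median 0.02, beside -0.08 for all genes), 50% called beside 48.8% of all genes. At E2C 3 rose and 2 fell (median 0.29, beside 0.15 for all genes), 13.2% called beside 20.3%. Neither share stands above that of all genes. Rraga, a Rag GTPase that works at the lysosome with Slc38a9, averaged 323 ± 21.9 FPKM in siEchs1 L2C and 33.4 ± 3.26 FPKM in siCon L2C (3.24 ± 0.32, limma adjusted p = 5.07e-05). Sesn2, a leucine sensor, averaged 9.63 ± 4.89 FPKM in siEchs1 L2C and 140.6 ± 36.03 FPKM in siCon L2C (-3.84 ± 0.50, limma adjusted p = 0.000132). Rragd fell too (-2.51), and Tbc1d7, a subunit of the TSC complex, rose (2.45).

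The ATF4 pathway and amino acid supply list, 31 genes tested, had 3 higher and 10 lower at L2C (median -0.18) and 3 higher and 2 lower at E2C (median 0.27). The called shares, 41.9% at L2C and 16.1% at E2C, were below the 48.8% and 20.3% of all genes. Psat1, an enzyme of serine synthesis, averaged 7.27 ± 3.46 FPKM in siEchs1 L2C and 108.2 ± 34.0 FPKM in siCon L2C. Shmt1, which interconverts serine and glycine, averaged 11.5 ± 4.62 FPKM in siEchs1 L2C and 176.1 ± 64.8 FPKM in siCon L2C. Both fell (-3.79 and -3.84), as did Trib3, a target of ATF4 (-3.31). In the glycine, proline and glutamine metabolism list, 24 genes tested, 5 were higher and 11 lower at L2C (median -0.32), and 4 were higher and 4 lower at E2C (median 0.11), which are 66.7% and 33.3% called. Subunits of the glycine cleavage system fell, Gldc to 2.57 ± 1.501 FPKM in siEchs1 L2C, against 50.2 ± 29.9 FPKM in siCon L2C, and Amt to 0.663 ± 0.276, against 18.5 ± 6.15. Tdh, threonine dehydrogenase, fell by 3.32 on the log2 scale.

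The list of cell volume and organic osmolytes, 22 genes tested, had 5 higher and 8 lower at L2C (median -0.30) and 6 higher and 1 lower at E2C (median 0.56). That is 59.1% called at L2C, beside 48.8% of all genes with a median of -0.08, and 31.8% at E2C, beside 20.3% with a median of 0.15. Akr1b3, the aldose reductase that makes sorbitol, averaged 827.5 ± 202.9 FPKM in siEchs1 L2C and 118.7 ± 43.2 FPKM in siCon L2C (2.84 ± 0.36, limma adjusted p = 0.000119). Sord, which uses sorbitol, fell (-2.62), and so did Slc12a2, the sodium, potassium and chloride cotransporter (-2.91). Of 17 other amino acid and peptide carriers, 4 rose and 7 fell at L2C (64.7% called, median 0.36) and 4 rose at E2C (23.5%, median 0.63). Ctns, the lysosomal cystine exporter, averaged 7.09 ± 3.21 FPKM in siEchs1 L2C and 0.847 ± 0.413 FPKM in siCon L2C (2.06 ± 0.47), and Slc25a44, a mitochondrial carrier of branched-chain amino acids, averaged 13.0 ± 4.34 FPKM in siEchs1 L2C and 119.1 ± 44.8 FPKM in siCon L2C (-3.08 ± 0.43). Of 17 genes for trafficking and regulation of transporters, 5 rose and 5 fell at L2C (58.8% called, median -0.11) and 4 rose and 2 fell at E2C (35.3%, median 0.06). Emb, a chaperone of membrane carriers, was lower in siEchs1 at both stages (-3.71 at L2C, -2.78 at E2C).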

How the data were processed

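Smart-seq2 libraries of pooled embryos gave paired-end 150 nt reads, per the labels' protocols. The submitters' processing notes name cutadapt 1.16, STAR and the mm10 build, without the program or annotation behind the FPKM values. What the authors deposited were FPKM values, scaled per library and per gene length, with no counts. At the best of many trial depths, 35.6% to 47.2% of the low values used fell near whole fragments (within 0.15). A fixed depth with no steps would give 30.0%, which is not the chance level for the best of many. Depth is thus unknown. Replicate titles and file headers disagreed for siEchs1 L2C replicates 2 and 3, and titles were used.

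Duplicated symbols (108) and symbols read as dates (24) were dropped, leaving 55098. Tests covered genes reaching 1 FPKM in 3 or more of the siRNA libraries, or in 2 or more of the treatment libraries, as log2(FPKM + 1) with limma-trend and robust variances (limma 3.58.1, R 4.3.3), 1 fit per experiment with a mean per group and no covariate, checked on simulated data. P-values were adjusted over all genes tested. Exon overlaps came from GENCODE (all 67 members matched by ID) and promoters from RefSeq. Named were all members called, members with known roles in eggs, volume control, shared subunits or lysosomal sensing, and from each list up to 4 called genes with the smallest adjusted p. The members and lists were chosen with earlier results of these data known. Alternatives covered scaling, filter, pseudocount, variance model, replicate block, fewer libraries and each library left out.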

Additional observations from a re-analysis of the deposited data

Results flagged for a closer look

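For 9 transporters the effect of the Echs1 siRNA differed between the stages by the interaction test (limma, adjusted over all genes), given as the log2 effect at L2C minus that at E2C. It was lower at L2C for Slc1a5 (-3.77, adjusted p = 0.00516), Slc1a4 (-2.59, 0.00614), Slc7a4 (-1.66, 0.00794), Slc7a7 (-2.33, 0.0109), Slc7a5 (-1.93, 0.0206) and Slc1a1 (-3.22, 0.033). It was higher at L2C for Slc7a14 (2.20, 0.0021), Slc6a20b (1.98, 0.0446) and Slc38a6 (1.59, 0.045). The calls of Slc6a20b and Slc38a6 were each lost under 12 of 18 alternatives and that of Slc1a1 under 9. Slc7a4 had 0 FPKM in every siCon E2C library and in 2 of the 3 from siEchs1 E2C, so its difference rests on the L2C libraries. Slc1a4, Slc7a4 and Slc7a14 each passed the filter only through a single siCon group. Oxa1l, an opposite-strand gene that shares exon bases with Slc7a7, differed as well (-2.34, limma adjusted p = 0.015).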

How the results depend on the processing

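Of 67 calls of single members (Slc7a6os included), 39 were kept under every alternative and 28 were lost under at least 1; no called member changed direction. At E2C the 10 called became 3 without the filter on low values and 3 with only the compared libraries, and 3 to 10 with 1 library left out. At L2C the 14 became 9 (without siEchs1 L2C replicate 3) to 18, and the 9 of the interaction 5 (without siCon E2C replicate 3 or siEchs1 L2C replicate 3) to 10. The 22 between stages in siCon became 18 to 23. The 9 in siEchs1 became 3 under quantile normalization, 3 with only the compared libraries, and 4 to 10 with 1 library left out. In crotonate against DMSO the 0 became 2, both lower, with only the compared libraries, and 0 to 2 with 1 library left out. In acetate against DMSO it became 0 to 3, and in crotonate against acetate 0 to 3, the 3 in both cases without acetate replicate 2 (Slc6a9 -1.24, Slc7a1 -2.19 and Slc7a2 -1.83 against DMSO; Slc43a3 1.28, Slc6a9 1.01 and Slc7a1 1.65 for crotonate against acetate). Without acetate replicate 1 the sign turned in acetate against DMSO for Slc6a9 (0.062), Slc7a1 (0.14) and Slc7a2 (0.21), and in crotonate against acetate for Slc6a9 (-0.29) and Slc7a1 (-0.69), none of them called. The counts of all genes called moved as well. With only the compared libraries, the 3578 of 17652 at E2C became 1353. The 2572 between stages in siEchs1 became 566, and the 73 of 13789 in crotonate against DMSO became 1147. With 1 library left out, the count of all genes was 1889 to 6496 at E2C and 6896 to 10308 at L2C, beside 8611. The cause of these shifts, in the members and in all genes, was not tested. A fit of the interaction with only the compared libraries is the same as the main one and was not run.

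Replicate numbers were not taken to pair the libraries: deviations from the group mean of same-numbered libraries correlated at -0.10 to 0.11 in the siRNA and -0.10 to 0.16 in the treatment experiment. With the numbers of the file headers for siEchs1 L2C replicates 2 and 3, the L2C pairs correlated at 0.111, 0.088 and 0.224. The other pairs of siCon L2C and siEchs1 L2C libraries correlated at -0.155 to 0.017. The replicate block used the numbers of the titles, so a pairing by the header numbers was not tested. With the replicate block 7 were called at E2C, 14 at L2C, 7 in the interaction, 21 between stages in siCon, 9 in siEchs1 and 0 in each treatment comparison.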

Other observations

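The control embryos of the 2 experiments, both collected at the early 2-cell stage, differed in their transporter levels. DMSO embryos had 47.3 and 47.5 FPKM of Slc6a9 and 55.0 and 54.2 FPKM of Slc7a11, and siCon E2C embryos 3.44 to 5.19 FPKM of Slc6a9 and 10.7 to 12.6 FPKM of Slc7a11. Slc38a6 went the other way, with 0.35 and 0.45 FPKM in DMSO and 8.97 to 10.3 FPKM in siCon E2C embryos. The files of the 2 experiments were each scaled on their own, siRNA delivery and experiment cannot be told apart, and the difference was not tested.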
